A study of Homo sapiens with 16 samples.

Results

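The genes described here are 40 genes of NRF2 signalling, glutathione metabolism and antioxidant defence, chosen by name for their known roles among the 78894 features of the table that are not spike-in controls. The choice was made with earlier results of these data known, so shares of members set beside shares of all tested genes are descriptions only. All 40 were found, each in 1 row, and 38 were tested. AKR1C2 and AKR1C3, aldo-keto reductases of the 1C family, were below the limit of 1 CPM (count per 1000000 reads assigned to genes) in at least 4 libraries. The study sequenced RNA of the breast cancer cell line T47D, which expresses estrogen receptor and is of luminal type, in 4 groups of 4 libraries. The control vehicle group carried a control guide and received vehicle (DMSO). The control abemaciclib group carried the same kind of guide and received 500 nM of the CDK4/6 inhibitor abemaciclib for 3 days. The knockout vehicle and knockout abemaciclib groups carried a knockout of FAH and received the same treatments. FAH encodes fumarylacetoacetate hydrolase, which performs the last step of tyrosine breakdown, and the study concerns its part in resistance to CDK4/6 inhibitors. The culture medium (high-glucose DMEM with serum) was shared by all groups. Neither the guide sequences nor the clonal or pooled origin of the knockout line is stated. Nor do the labels say that libraries came from separate cultures. The p-values then reflect only the spread among libraries within groups, part or all of which can be technical. In the limma fit used below this spread is pooled over all 16 libraries.

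NRF2, encoded by NFE2L2, is a transcription factor that KEAP1 binds in the cytoplasm and hands to a ubiquitin ligase for degradation. Electrophiles and oxidants modify cysteines of KEAP1, NRF2 then accumulates, pairs with small MAF proteins and binds antioxidant response elements in the promoters and enhancers of genes for glutathione synthesis, thioredoxin, NADPH supply and detoxification. Because NRF2 is controlled mainly through the stability of its protein, the mRNA of NFE2L2 is no measure of its activity. Fumarylacetoacetate, the substrate of FAH, is an electrophile that can react with glutathione.

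The libraries held 9915776 to 11963093 assigned reads, and 1 read was worth 0.0836 to 0.101 CPM. FAH mRNA was at 25.1% of control in knockout cells under vehicle and at 24.0% under abemaciclib (exact two-sided permutation p = 0.0286 within each treatment, the smallest that 70 assignments of 4 against 4 libraries allow). All 12 luminal markers examined, ESR1 and GATA3 among them, were above 1 CPM in all 16 libraries, and their sum moved with the groups, from 11576 to 11778 CPM in control vehicle libraries up to 17740 to 18103 CPM in knockout abemaciclib libraries. Of the 6 leukocyte, 3 endothelial and 3 hepatocyte markers none reached 1 CPM in all libraries, the endothelial CDH5 was at 0 throughout, and library sums did not exceed 6.13, 0.179 and 1.40 CPM. Of 5 basal markers ITGB4 was at 37.9 to 51.8 CPM, KRT17 reached 1.13 CPM in its highest library, KRT5 and KRT14 did not exceed 0.0997 CPM, and library sums lay between 38.9 and 52.2 CPM. Of 7 mesenchymal markers 4 were above 1 CPM in every library, with group sums between 92.3 and 113 CPM. Whether these markers have a part in the results below was not tested. Values of 10 members (NFE2L2, GCLM, GPX1, PRDX1, PGD, TALDO1, GSTK1, CBR1, OSGIN1 and AKR1C2) were whole reads in 8 or fewer of the 16 libraries, and their levels are uncertain by an unknown amount.

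The core of the antioxidant response element, TGACNNNGC, was looked for on both strands in RefSeq promoters (GRCh38.p14, 250 bases before to 50 after a gene's start, 1 or more starts per gene). Promoters of 33 members were in the table, and 10 of the 33 (30.3%) held the core in at least 1 promoter, against 4384 of 27305 genes (16.1%) in all. The sequences below are shown because they are the places in these promoters where the letters that NRF2 can bind occur before the start, each with 10 bases on either side. Capitals mark the core, which reads GCNNNGTCA where it lies on the other strand, and each sequence is given 5′ to 3′ on the strand of its gene.
TXNRD1, chr12:104215670-104215698, plus strand, 99 to 91 bases before the start: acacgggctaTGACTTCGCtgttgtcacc
TXNRD1, chr12:104286920-104286948, plus strand, 102 to 94 bases before the start at another start: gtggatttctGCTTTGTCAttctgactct
GCLM, chr1:93909446-93909474, minus strand, 34 to 26 bases before the start: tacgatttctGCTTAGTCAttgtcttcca
CBR1, chr21:36069855-36069883, plus strand, 159 to 151 bases before the start: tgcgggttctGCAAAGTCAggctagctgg
EPHX1, chr1:225825266-225825294, plus strand, 78 to 70 bases before the start: tgagattggcTGACTTGGCaggactgtgc
KEAP1, chr19:10502807-10502835, minus strand, 54 to 46 bases before the start: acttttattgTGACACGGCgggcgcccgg
KEAP1, chr19:10502784-10502812, minus strand, 31 to 23 bases before the start: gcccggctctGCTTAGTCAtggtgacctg
PGD, chr1:10398853-10398881, plus strand, 201 to 193 bases before the start: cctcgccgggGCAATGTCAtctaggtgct
GSTO1, chr10:104254656-104254684, plus strand, 226 to 218 bases before the start: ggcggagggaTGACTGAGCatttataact
GSTO1, chr10:104254721-104254749, plus strand, 161 to 153 bases before the start: cgagatgcttTGACACAGCcccttaagat
GSTP1, chr11:67583736-67583764, plus strand, 66 to 58 bases before the start: gccggcgccgTGACTCAGCactggggcgg
PIR and MGST1 held the core only after the start, where no sequence is shown. These matches are descriptions of letters and not of binding. NQO1, GCLC, SRXN1, NFE2L2 and 19 other members had no match in their windows, which says only that these letters are not in these 300 bases.

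The first question was how the genes differ between knockout and control cells without the drug. Of the 38 tested members 13 were higher and 11 lower in knockout cells under vehicle (limma, adjusted p under 0.05). Over all 16218 tested genes 24.6% were higher and 13.1% lower, 37.7% together, and among the 9240 genes of at least 10 mean CPM, the range of 35 of the 38 members, 30.4% and 17.7% were. Both directions were thus met at once, and the median difference of the members was 0.02 log2 units against 0.06 for all tested genes. In 12 members every knockout library was above every control library and in 10 every one was below (22.2% and 12.7% of all tested genes). Under abemaciclib 16 members were higher and 4 lower in knockout cells (18.6% and 11.3% of all tested genes, 29.9% together, 25.1% and 13.6% of those of at least 10 mean CPM), with a median of 0.11 against 0.04. Groups did not overlap in 14 members that were higher and 5 that were lower (16.5% and 10.1% of all tested genes).

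The 2 genotype comparisons take their differences from different libraries, but both use the spread pooled over all libraries. A gene thus has the same SE in both, and its calls in the 2 comparisons are not fully independent. Of the 13 members higher under vehicle 10 were also higher under abemaciclib, which is 10 of the 16 higher there: NFE2L2, GCLC, TXNRD1, PRDX1, NQO1, CBR1, EPHX1, PIR, MGST3 and TALDO1. Among these 10, NQO1, GCLC, TXNRD1 and PIR are known targets of NRF2 in other cells. Targets are named here as examples and not as a full list. Of the 11 members lower under vehicle 4 were also lower under abemaciclib, and these were all 4 lower there: GPX4, CAT, GSTM3 and OSGIN1. Of these 4, OSGIN1 is likewise a known NRF2 target in other cells. TXN, a thioredoxin gene and so of the kinds that NRF2 binds, was lower under vehicle and higher under abemaciclib. How many of all tested genes were called in both comparisons was not counted. The counts shared by both are thus not set against a background. The 9 members called in neither comparison included HMOX1, SRXN1 and GSR, which are also known NRF2 targets in other cells.

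**Figure D1:**
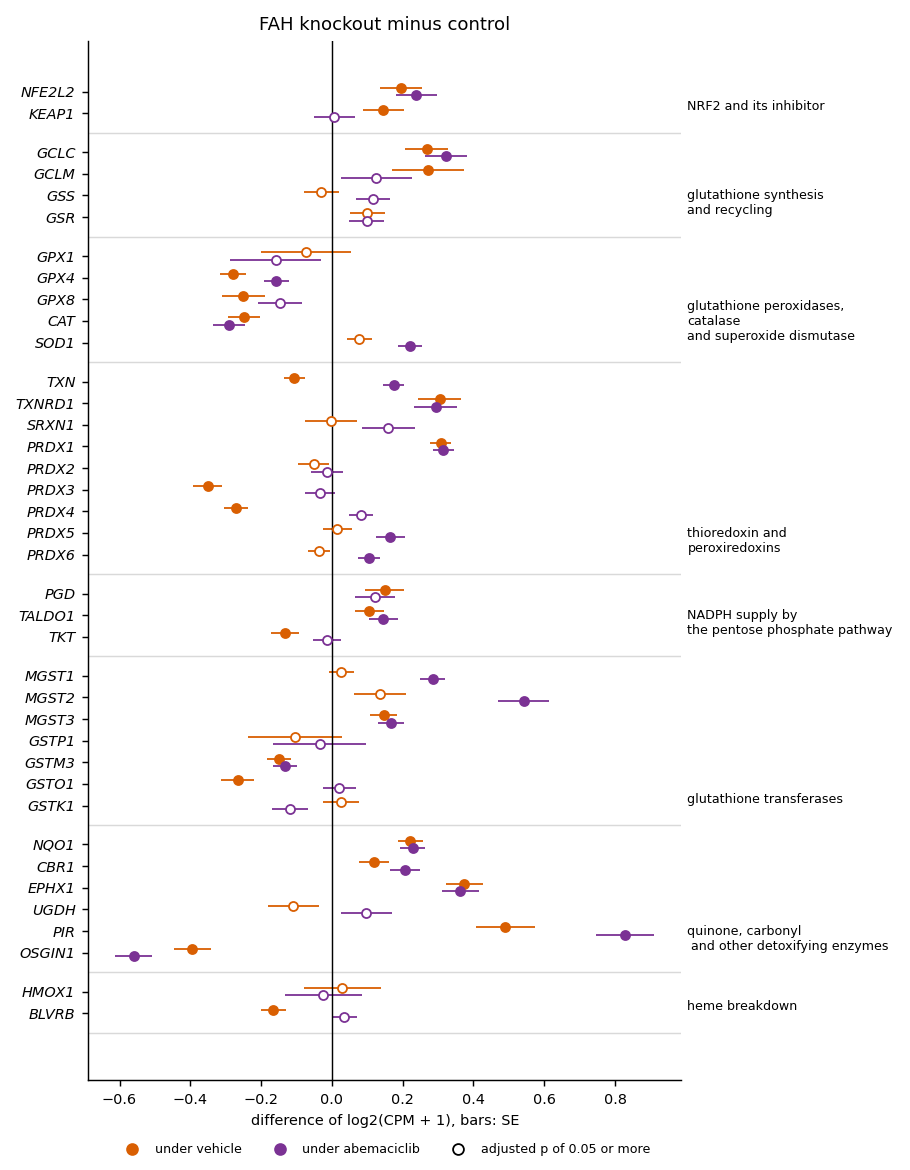
Difference between FAH knockout and control libraries on the log2(CPM + 1) scale for the 38 tested members, grouped by role, under vehicle and under abemaciclib (bars, SE of the fit; filled points, limma adjusted p under 0.05). PIR lies farthest to the right and OSGIN1 farthest to the left under both treatments, and TXN changes side.

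NFE2L2 and KEAP1 encode NRF2 and its inhibitor. NFE2L2 stood at 42.0, 44.0, 41.7 and 38.6 CPM in the control libraries under vehicle and at 51.1, 44.96, 46.3 and 48.5 CPM in the knockout libraries. Under abemaciclib NFE2L2 stood at 41.6, 34.6, 34.8 and 34.4 CPM in control and at 41.6, 43.7, 46.0 and 40.8 CPM in knockout libraries. All knockout libraries were above all control libraries under vehicle, while under abemaciclib the highest control library reached into the knockout range. The differences were 0.20 log2 units under vehicle (SE 0.0587, limma adjusted p = 0.00839) and 0.24 under abemaciclib (limma adjusted p = 0.00193), and the former missed the threshold after median-of-ratios rescaling (limma adjusted p = 0.0574). KEAP1 stood at 34.1, 30.3, 32.7 and 31.5 CPM in the control libraries under vehicle and at 34.2, 36.5, 34.0 and 37.9 CPM in the knockout libraries. Under abemaciclib KEAP1 stood at 30.6, 33.7, 29.3 and 28.0 CPM in control and at 30.5, 30.9, 29.1 and 31.5 CPM in knockout libraries. Groups overlapped in both. KEAP1 was 0.15 higher under vehicle (limma adjusted p = 0.0461) and at 0.01 under abemaciclib (limma adjusted p = 0.949). The vehicle call was lost without any 1 of control vehicle replicates 2, 3 and 4, knockout vehicle replicates 2 and 4 or knockout abemaciclib replicates 2 and 4 (limma adjusted p between 0.0502 and 0.155), and in 5 other settings, both rescalings and the replicate block among them (between 0.0520 and 0.268).

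Glutathione is made by glutamate-cysteine ligase, with GCLC as its catalytic and GCLM as its modifier subunit, and then by glutathione synthetase (GSS), and it is kept reduced by GSR. GCLC stood at 25.01, 27.3, 28.4 and 25.1 CPM in the control libraries under vehicle and at 32.9, 31.3, 32.4 and 31.4 CPM in the knockout libraries. Under abemaciclib GCLC stood at 26.4, 23.1, 23.8 and 21.6 CPM in control and at 29.5, 28.8, 31.1 and 30.1 CPM in knockout libraries. Every knockout library was above every control library under both treatments. GCLC rose by 0.27 under vehicle (SE 0.0596, limma adjusted p = 5.4e-04) and by 0.32 under abemaciclib (SE 0.0596, limma adjusted p = 6.8e-05). GCLM stood at 12.7, 9.32, 12.3 and 14.4 CPM in the control libraries under vehicle and at 14.3, 15.6, 13.8 and 15.4 CPM in the knockout libraries. Under abemaciclib GCLM stood at 9.30, 8.85, 9.99 and 8.86 CPM in control and at 13.1, 9.56, 9.17 and 9.31 CPM in knockout libraries. The groups overlapped in both treatments, with control vehicle replicate 2 the lowest of its group and knockout abemaciclib replicate 1 the highest of its own. Its difference of 0.27 under vehicle passed (limma adjusted p = 0.0337) but missed the threshold when control vehicle replicate 2 or knockout vehicle replicate 2 or 4 was left out (0.218, 0.0861 and 0.0821). It was also lost without the filter, after rescaling, after quantile normalization and without the trend (limma adjusted p between 0.0763 and 0.150), and it was 0.13 under abemaciclib (limma adjusted p = 0.385). GSS stood at 57.3 ± 2.75 CPM in control and 56.1 ± 2.63 in knockout libraries under vehicle, and GSR at 36.4 ± 1.006 and 39.1 ± 1.23. Neither passed the test under vehicle or abemaciclib, with values between -0.03 and 0.12.

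Of the 5 glutathione peroxidases, catalase and superoxide dismutase genes, which remove peroxides and superoxide, 3 were lower and none higher in knockout cells under vehicle (13.1% and 24.6% of all tested genes). GPX4 is the selenoprotein that reduces lipid peroxides in membranes. GPX4 stood at 334, 329.6, 329.8 and 326 CPM in the control libraries under vehicle and at 259, 283, 275 and 271 CPM in the knockout libraries. Under abemaciclib GPX4 stood at 224, 241, 243 and 257 CPM in control and at 222, 222, 213 and 208 CPM in knockout libraries. The knockout libraries were all lower under both treatments, by 0.28 log2 units under vehicle (SE 0.036, limma adjusted p = 1.4e-07) and by 0.16 under abemaciclib (limma adjusted p = 9.6e-04). CAT encodes catalase of the peroxisome. CAT stood at 72.5, 73.7, 74.7 and 66.2 CPM in the control libraries under vehicle and at 64.7, 61.2, 57.1 and 58.2 CPM in the knockout libraries. Under abemaciclib CAT stood at 73.9, 70.8, 71.3 and 73.8 CPM in control and at 61.4, 57.7, 58.6 and 58.4 CPM in knockout libraries. The groups did not overlap in either treatment, and CAT fell by 0.25 and 0.29 (limma adjusted p = 5.4e-05 and 6.2e-06). GPX8, a peroxidase of the endoplasmic reticulum, fell from 35.3 ± 3.08 to 29.5 ± 2.44 CPM under vehicle (-0.25, limma adjusted p = 0.00142) and was at -0.15 under abemaciclib (limma adjusted p = 0.0674). SOD1, the cytosolic superoxide dismutase, was instead higher under abemaciclib, at 235 ± 8.94 against 202 ± 8.29 CPM (0.22, limma adjusted p = 4.8e-06), and at 0.08 under vehicle without passing (limma adjusted p = 0.0708). GPX1, the main cytosolic glutathione peroxidase, was measured at only 1.07 ± 0.148 CPM in control vehicle libraries, from values that were whole reads in 1 of 16 libraries, and no direction is drawn from it.

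Thioredoxin (TXN) passes electrons from NADPH, through its reductase TXNRD1, to the peroxiredoxins, which reduce peroxides. TXNRD1 stood at 52.2, 47.2, 50.9 and 42.4 CPM in the control libraries under vehicle and at 60.9, 58.5, 57.6 and 61.4 CPM in the knockout libraries. Under abemaciclib TXNRD1 stood at 51.2, 46.5, 40.2 and 43.3 CPM in control and at 54.5, 59.4, 52.3 and 56.0 CPM in knockout libraries. TXNRD1 rose by 0.30 and 0.29 (SE 0.0612 in both, limma adjusted p = 1.6e-04 and 3.4e-04), and its groups did not overlap in either treatment. PRDX1 stood at 611, 626, 605 and 618 CPM in the control libraries under vehicle and at 773, 749, 761 and 761 CPM in the knockout libraries. Under abemaciclib PRDX1 stood at 586, 645, 643 and 612 CPM in control and at 758, 761, 797 and 774 CPM in knockout libraries. PRDX1, the abundant cytosolic peroxiredoxin, was higher in every knockout library, by 0.31 in both treatments (limma adjusted p = 3.7e-10 and 2.9e-10), from values that were mostly not whole reads.

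Of the other 5 peroxiredoxins PRDX3 and PRDX4 were lower under vehicle, and PRDX5 and PRDX6 were higher under abemaciclib. PRDX3 is the peroxiredoxin of mitochondria. PRDX3 stood at 168, 166, 158 and 164 CPM in the control libraries under vehicle and at 138, 123, 129 and 124 CPM in the knockout libraries. Under abemaciclib PRDX3 stood at 122, 111, 120.1 and 122 CPM in control and at 123, 114, 116 and 111 CPM in knockout libraries. Under vehicle all knockout libraries lay below all control libraries, and under abemaciclib the groups overlapped. PRDX3 fell by 0.35 under vehicle (SE 0.0411, limma adjusted p = 2.2e-08) and was at -0.03 under abemaciclib (limma adjusted p = 0.589). PRDX4 acts in the endoplasmic reticulum. PRDX4 stood at 348, 321, 333 and 335 CPM in the control libraries under vehicle and at 269, 281, 278 and 279 CPM in the knockout libraries. Under abemaciclib PRDX4 stood at 207, 213, 216 and 221 CPM in control and at 240.3, 222, 223 and 222 CPM in knockout libraries. It fell by 0.27 under vehicle (limma adjusted p = 6.1e-08) with no overlap, and under abemaciclib stood at 0.08, where the knockout libraries were all above the control libraries without passing (limma adjusted p = 0.0616). PRDX5 and PRDX6 passed only under abemaciclib (0.16 and 0.10, limma adjusted p = 0.00205 and 0.00792), the latter lost after rescaling (0.220) and quantile normalization (0.0671). PRDX2 passed in neither (-0.05 and -0.01), nor did SRXN1, the sulfiredoxin that repairs overoxidized peroxiredoxins (-0.00 and 0.16). TXN itself fell from 677 ± 18.4 to 629 ± 16.2 CPM under vehicle (-0.11, limma adjusted p = 0.00445), a call lost after quantile normalization (0.883). Under abemaciclib TXN was at 571 ± 12.5 CPM in knockout against 506 ± 14.6 in control libraries (0.18, limma adjusted p = 1.8e-05).

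NADPH, which feeds both systems, comes in part from the pentose phosphate pathway. PGD, an NADPH-producing enzyme of it, was at 87.5 ± 7.26 CPM in control and 97.0 ± 4.80 in knockout libraries under vehicle (0.15, limma adjusted p = 0.0315). TALDO1, the transaldolase, was at 234 ± 4.28 and 252 ± 14.7 (0.11, limma adjusted p = 0.0397). Both calls were weak. PGD missed the threshold when control vehicle replicate 2 or 3 or knockout vehicle replicate 3 or 4 was left out (limma adjusted p between 0.0516 and 0.183), and TALDO1 without any of the 4 control vehicle replicates or knockout vehicle replicate 1, 3 or 4 (between 0.0511 and 0.167). Without the filter, after rescaling and without the trend both were lost too (between 0.116 and 0.486), and PGD after quantile normalization (0.0753). Transketolase, TKT, fell by 0.13 under vehicle (limma adjusted p = 0.00931). Under abemaciclib only TALDO1 of the 3 passed (0.15, limma adjusted p = 0.00658), a call that was lost after rescaling (0.0870), without the filter (0.0571) and without the trend (0.0565).

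Glutathione transferases join glutathione to electrophiles. The microsomal MGST2 gave the largest difference of this family. MGST2 stood at 17.2, 18.1, 18.1 and 19.3 CPM in the control libraries under vehicle and at 20.2, 20.5, 20.1 and 19.4 CPM in the knockout libraries. Under abemaciclib MGST2 stood at 9.81, 12.3, 12.5 and 12.3 CPM in control and at 17.01, 17.8, 18.9 and 16.2 CPM in knockout libraries. Under vehicle the knockout libraries were above the control libraries by a narrow margin, and the difference of 0.14 did not pass (limma adjusted p = 0.147). Under abemaciclib they stood further apart (log2 fold change 0.54, SE 0.0727, limma adjusted p = 4.1e-07). MGST1 likewise passed only under abemaciclib, at 304 ± 7.53 CPM in knockout against 249.9 ± 14.7 in control libraries (0.28, limma adjusted p = 6.4e-08), against 357 ± 11.6 and 351 ± 1.89 under vehicle (0.03). MGST3 stood at 256, 279.9, 252 and 268 CPM in the control libraries under vehicle and at 303, 293, 287 and 286 CPM in the knockout libraries. Under abemaciclib MGST3 stood at 272, 292, 306 and 303 CPM in control and at 327, 335, 338 and 315 CPM in knockout libraries. MGST3 rose by 0.15 and 0.17 (limma adjusted p = 0.00206 and 7.3e-04), the former lost after rescaling (0.126).

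Of the cytosolic transferases, GSTM3 was lower in knockout cells. GSTM3 stood at 604, 571, 570.1 and 606 CPM in the control libraries under vehicle and at 506, 532, 548 and 533 CPM in the knockout libraries. Under abemaciclib GSTM3 stood at 488, 507, 544 and 540.4 CPM in control and at 479, 486, 462 and 466 CPM in knockout libraries. It fell by 0.15 and 0.13 (limma adjusted p = 6.6e-04 and 0.00271), and the vehicle call was lost after quantile normalization (0.120). GSTO1 stood at 109, 102, 102 and 110.5 CPM in the control libraries under vehicle and at 85.8, 91.3, 87.1 and 87.4 CPM in the knockout libraries. Under abemaciclib GSTO1 stood at 64.6, 56.0, 66.1 and 65.9 CPM in control and at 63.5, 62.9, 64.0 and 65.5 CPM in knockout libraries. GSTO1, of the omega class, fell by 0.27 under vehicle, where no knockout library reached a control library (limma adjusted p = 2.1e-05), and was at 0.02 under abemaciclib. GSTK1 stood at 55.3, 48.9, 46.97 and 50.8 CPM in the control libraries under vehicle and at 51.2, 51.8, 53.5 and 49.1 CPM in the knockout libraries. Under abemaciclib GSTK1 stood at 59.6, 62.8, 57.7 and 60.0 CPM in control and at 59.1, 53.0, 56.9 and 52.1 CPM in knockout libraries. GSTK1, of the kappa class in mitochondria and peroxisomes, passed in neither (0.03 and -0.12). GSTP1 was at 4.45 ± 0.762 CPM in control vehicle libraries and passed in neither (-0.11 and -0.03); its promoter is among the sequences shown above.

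PIR and OSGIN1, grouped here with the detoxifying enzymes EPHX1, NQO1, CBR1 and UGDH, held both extremes of the tested members in the genotype comparisons. PIR encodes pirin, an iron-binding nuclear protein and known NRF2 target in other cells. PIR stood at 17.3, 14.9, 14.2 and 15.9 CPM in the control libraries under vehicle and at 25.2, 20.8, 20.2 and 23.1 CPM in the knockout libraries. Under abemaciclib PIR stood at 6.07, 7.71, 6.29 and 7.03 CPM in control and at 13.2, 13.5, 11.8 and 12.6 CPM in knockout libraries. All knockout libraries were above all control libraries in each treatment. PIR rose from 15.6 ± 1.37 to 22.3 ± 2.28 CPM under vehicle (log2 fold change 0.49, SE 0.0831, limma adjusted p = 1.6e-05) and was at 12.8 ± 0.742 against 6.78 ± 0.746 CPM under abemaciclib (0.83, limma adjusted p = 1.2e-09). EPHX1, microsomal epoxide hydrolase, adds water to reactive epoxides. EPHX1 stood at 52.4, 52.2, 51.5 and 50.9 CPM in the control libraries under vehicle and at 62.4, 69.9, 68.1 and 69.4 CPM in the knockout libraries. Under abemaciclib EPHX1 stood at 49.3, 50.2, 58.6 and 56.2 CPM in control and at 65.3, 71.5, 67.1 and 72.4 CPM in knockout libraries. EPHX1 rose by 0.37 and 0.36 (limma adjusted p = 4.6e-07 and 1.1e-06), again without overlap. NQO1, the quinone reductase often used as a readout of NRF2, rose from 224 ± 3.26 to 261 ± 5.18 CPM under vehicle (0.22, limma adjusted p = 6.1e-06) and was at 205 ± 10.6 against 175 ± 6.43 under abemaciclib (0.23, limma adjusted p = 5.1e-06). CBR1, a carbonyl reductase, rose by 0.12 and 0.21 (limma adjusted p = 0.0253 and 2.4e-04), the former missing the threshold when control vehicle replicate 1 or knockout vehicle replicate 1 or 2 was left out (0.0833, 0.0704 and 0.0798) and after both rescalings (0.324 and 0.159).

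OSGIN1, an oxidative stress-induced growth inhibitor whose gene is an NRF2 target in other cells, was the member with the largest decrease. OSGIN1 stood at 32.1, 31.1, 31.0 and 33.6 CPM in the control libraries under vehicle and at 24.2, 24.6, 22.3 and 25.1 CPM in the knockout libraries. Under abemaciclib OSGIN1 stood at 50.03, 49.7, 46.2 and 48.7 CPM in control and at 31.4, 33.6, 32.3 and 33.3 CPM in knockout libraries. The knockout lay below the control in each treatment with no overlap (-0.39 under vehicle and -0.56 under abemaciclib, limma adjusted p = 2.2e-07 and 2.1e-10), from values that were mostly not whole reads. UGDH, which makes UDP-glucuronate, passed in neither (-0.11 and 0.10). HMOX1, heme oxygenase 1, stood at 6.91 ± 1.19 CPM in control vehicle and 7.01 ± 0.0835 in knockout vehicle libraries, and at 5.69 ± 0.689 and 5.59 ± 0.774 under abemaciclib, and passed in neither (0.03 and -0.02). BLVRB, a biliverdin reductase, fell by 0.17 under vehicle (limma adjusted p = 3.4e-04) and was at 0.03 under abemaciclib. AKR1C2 averaged between 0.252 and 0.382 CPM and AKR1C3 between 0.378 and 0.911 CPM over the groups, too few reads for a test.

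**Figure D2:**
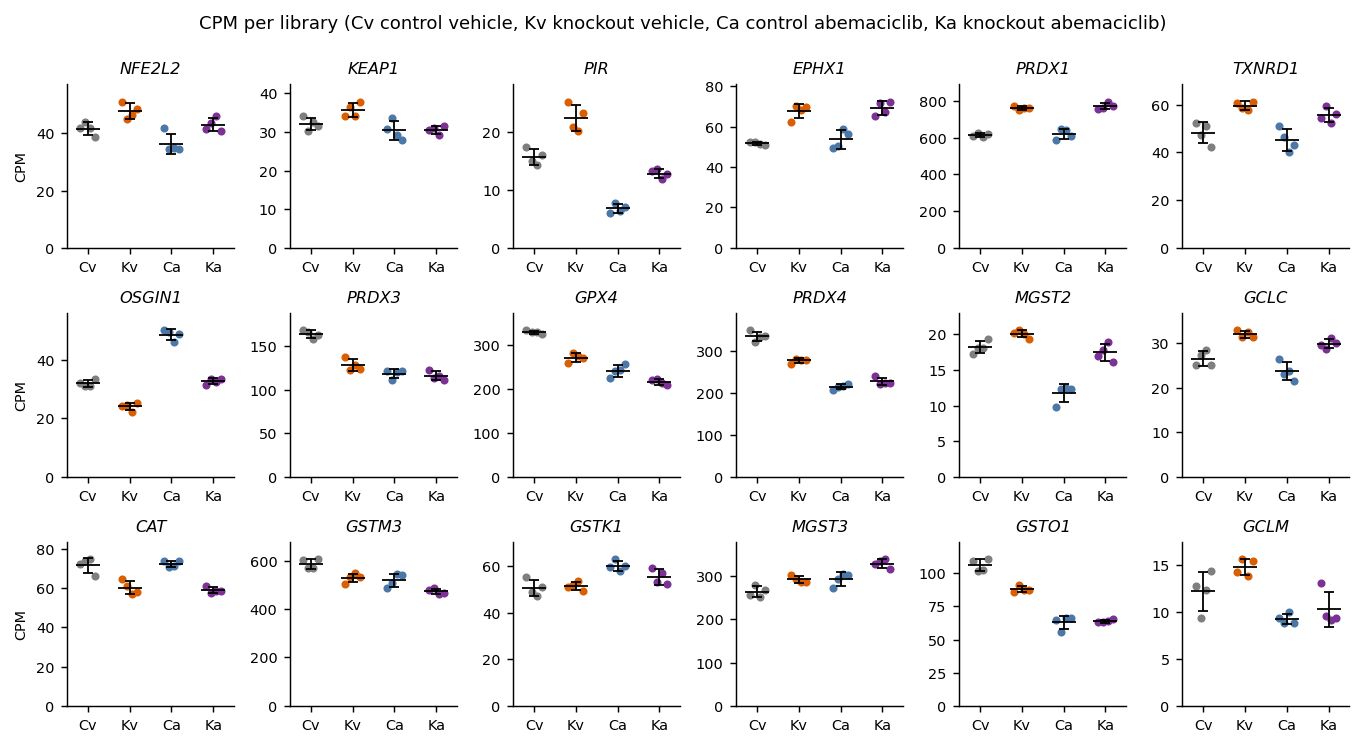
CPM of 18 members in each of the 16 libraries (points), with the mean and SD of 4 libraries per group (lines), on axes that start at 0. PIR, EPHX1, PRDX1 and GCLC are higher in knockout libraries under both treatments, OSGIN1 and CAT lower, and PRDX3 and GSTO1 are separated by genotype under vehicle and overlap under abemaciclib.

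The promoter matches can be set beside these calls as a description. Of the 10 members with the element core in a promoter 7 were higher and 1 lower in knockout cells under vehicle (CBR1, EPHX1, GCLM, KEAP1, PGD, PIR and TXNRD1 against GSTO1), with a median difference of 0.15 (24.6% and 13.1% of all tested genes). Of the 21 tested members with a promoter but no core 5 were higher and 10 lower, with a median of -0.11. Under abemaciclib 5 of the 10 were higher and the median was 0.17, against 7 higher and 4 lower of the 21 and a median of 0.03 (18.6% and 11.3% of all tested genes). GCLM, KEAP1, PGD and CBR1 are among the calls that depended on single libraries. All 4 were also lost after rescaling under vehicle (limma adjusted p = 0.104, 0.268, 0.244 and 0.324), which leaves EPHX1, PIR and TXNRD1 of the 7 higher there.

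How many members counted as higher in knockout cells under vehicle depended on the scaling of the libraries, although no called member changed sign under either rescaling. After median-of-ratios rescaling, which moved the median of all genes from 0.06 to -0.00109, 6 members were higher and 13 lower (17.4% and 18.4% of all tested genes), and after quantile normalization 10 and 10 (17.7% and 17.4%). In all tested genes the share of calls that were higher was 65.3% as deposited, 48.6% after rescaling and 50.4% after quantile normalization. The 6 members that stayed higher in each of 23 other settings were GCLC, TXNRD1, PRDX1, NQO1, EPHX1 and PIR, and the 9 that stayed lower were GPX4, GPX8, CAT, PRDX3, PRDX4, TKT, GSTO1, OSGIN1 and BLVRB. Some of these settings are weak checks. Leaving out a library that is not in a comparison keeps its differences as they are and alters only the shared spread and the adjustment. The median over the members was -0.04 after rescaling and -0.00113 without control vehicle replicate 3. Under abemaciclib 14 members were higher and 6 lower after rescaling (13.1% and 14.8% of all tested genes) and 15 and 6 after quantile normalization (14.1% and 14.02%), and 18 of the 20 calls stood in each setting.

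Abemaciclib against vehicle asks how the set responded to CDK4/6 inhibition in each genotype. Most members were lower with the drug. In control cells 23 of 38 members were lower and 3 higher with the drug (31.1% and 19.6% of all tested genes, 50.7% together, 38.9% and 23.5% of those of at least 10 mean CPM), with a median of -0.21 against -0.05 for all tested genes. In knockout cells 21 were lower and 2 higher (27.4% and 11% of all tested genes, 38.4% together, 34.0% and 14.8% of those of at least 10 mean CPM), with a median of -0.14 against -0.07. In each genotype 20 members were lower in every treated library than in any vehicle library (26.7% and 25.5% of all tested genes) and 2 were higher (16.1% and 10.4%). Control abemaciclib libraries had the lowest mean of the 4 groups in 22 of the 38 members, and knockout abemaciclib libraries in 10. The same count was not made over all tested genes, so it has no background.

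PIR fell most in both genotypes, from 15.6 ± 1.37 to 6.78 ± 0.746 CPM in control cells (log2 fold change -1.09, SE 0.0831, limma adjusted p = 3.5e-13) and from 22.3 ± 2.28 to 12.8 ± 0.742 CPM in knockout cells (-0.76, limma adjusted p = 4.0e-09). Every treated library of either genotype held less PIR than any vehicle library of either. GSTO1 fell from 106 ± 4.55 to 63.2 ± 4.83 CPM in control cells (-0.74, limma adjusted p = 2.4e-15) and from 87.9 ± 2.36 to 63.9 ± 1.11 in knockout cells (-0.45, limma adjusted p = 7.5e-10). PRDX4 fell by 0.64 in control and 0.29 in knockout cells (limma adjusted p = 1.8e-17 and 1.3e-08). BLVRB fell by 0.61 and 0.41. GCLM fell from 12.2 ± 2.105 to 9.25 ± 0.534 CPM in control cells (-0.35, limma adjusted p = 0.00423) and from 14.8 ± 0.864 to 10.3 ± 1.86 in knockout cells (-0.50, limma adjusted p = 1.7e-04).

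The genes named first above responded to the drug in different ways. NQO1 fell by 0.36 in control and 0.35 in knockout cells (limma adjusted p = 2.3e-10 and 6.6e-10), CBR1 by 0.39 and 0.30, and GSR, the glutathione reductase, by 0.23 in each. PRDX1, TXNRD1 and EPHX1 did not pass in either genotype, with values between -0.10 and 0.05. NFE2L2 fell by 0.19 in control cells (limma adjusted p = 0.0069), a call lost after rescaling (0.0660) and quantile normalization (0.139). Its fall of 0.15 in knockout cells (limma adjusted p = 0.046) was lost in 12 of 23 settings, among them when replicate 1 or 3 of control vehicle, 1, 3 or 4 of knockout vehicle or 1, 2 or 4 of knockout abemaciclib was left out (between 0.0507 and 0.161). KEAP1 fell by 0.22 in knockout cells (limma adjusted p = 0.00295), a call lost after rescaling (0.0695) and quantile normalization (0.0749), and was at -0.08 in control cells. GCLC was at -0.15 in control cells, which passed (limma adjusted p = 0.0329) but not when replicate 2 or 3 of control vehicle or replicate 2, 3 or 4 of control abemaciclib was left out (between 0.0506 and 0.147) and not in 4 other settings, both rescalings among them (between 0.0711 and 0.234), and at -0.10 in knockout cells.

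Of the remaining members, GSS (-0.19), GPX8 (-0.24) and SRXN1 (-0.30) fell in control cells and did not pass in knockout cells, while PRDX2 (-0.15 and -0.11), TKT (-0.25 and -0.13) and GSTM3 (-0.18 and -0.16) were lower in both. After rescaling PRDX2 was lost in both genotypes (limma adjusted p = 0.150 and 0.735), TKT in knockout cells (0.486) and GSTM3 in knockout cells (0.168). After quantile normalization PRDX2 was lost in both (0.431 and 0.611), TKT in knockout cells (0.388), and GSTM3 (0.669) and GSS (0.0645) in control cells. PRDX2 in knockout cells also missed the threshold without knockout vehicle replicate 2, 3 or 4 or knockout abemaciclib replicate 2 or 4 (limma adjusted p between 0.0504 and 0.162), without the filter (0.129), without the trend (0.0993) and with the replicate block (0.0518). HMOX1 was at -0.29 in knockout cells (limma adjusted p = 0.0334), a call lost without any 1 knockout vehicle library or knockout abemaciclib replicate 1 or 4 (limma adjusted p between 0.0546 and 0.143), without the filter (0.105) and after both rescalings (0.129 and 0.265). Few members rose with the drug. OSGIN1 rose from 31.9 ± 1.19 to 48.6 ± 1.73 CPM in control cells (0.59, SE 0.052, limma adjusted p = 1.3e-11) and from 24.1 ± 1.23 to 32.7 ± 0.999 in knockout cells (0.43, limma adjusted p = 3.6e-08), the opposite of its difference by genotype. MGST3 rose by 0.15 and 0.17 (limma adjusted p = 9.9e-04 and 3.9e-04). GSTK1 rose from 50.5 ± 3.56 to 60.0 ± 2.11 CPM in control cells (0.25, limma adjusted p = 1.1e-04) and was at 0.10 in knockout cells (limma adjusted p = 0.114). CAT, PGD, TALDO1 and PRDX5 did not pass in either genotype. The falls of GPX4 (-0.45 and -0.33) and SOD1 (-0.33 and -0.19) passed in both genotypes.

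In knockout cells the count depended on the scaling, with 11 members lower and 6 higher after rescaling (17.8% and 19.6% of all tested genes) and 14 and 5 after quantile normalization (16.7% and 22.1%). The 11 members lower in every setting there were GCLM, GSR, GPX4, SOD1, PRDX4, MGST1, GSTO1, NQO1, CBR1, PIR and BLVRB. In control cells 20 were lower and 5 higher after rescaling (24.8% and 25.7% of all tested genes) and 18 and 6 after quantile normalization (23.7% and 27.01%).

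**Figure D3:**
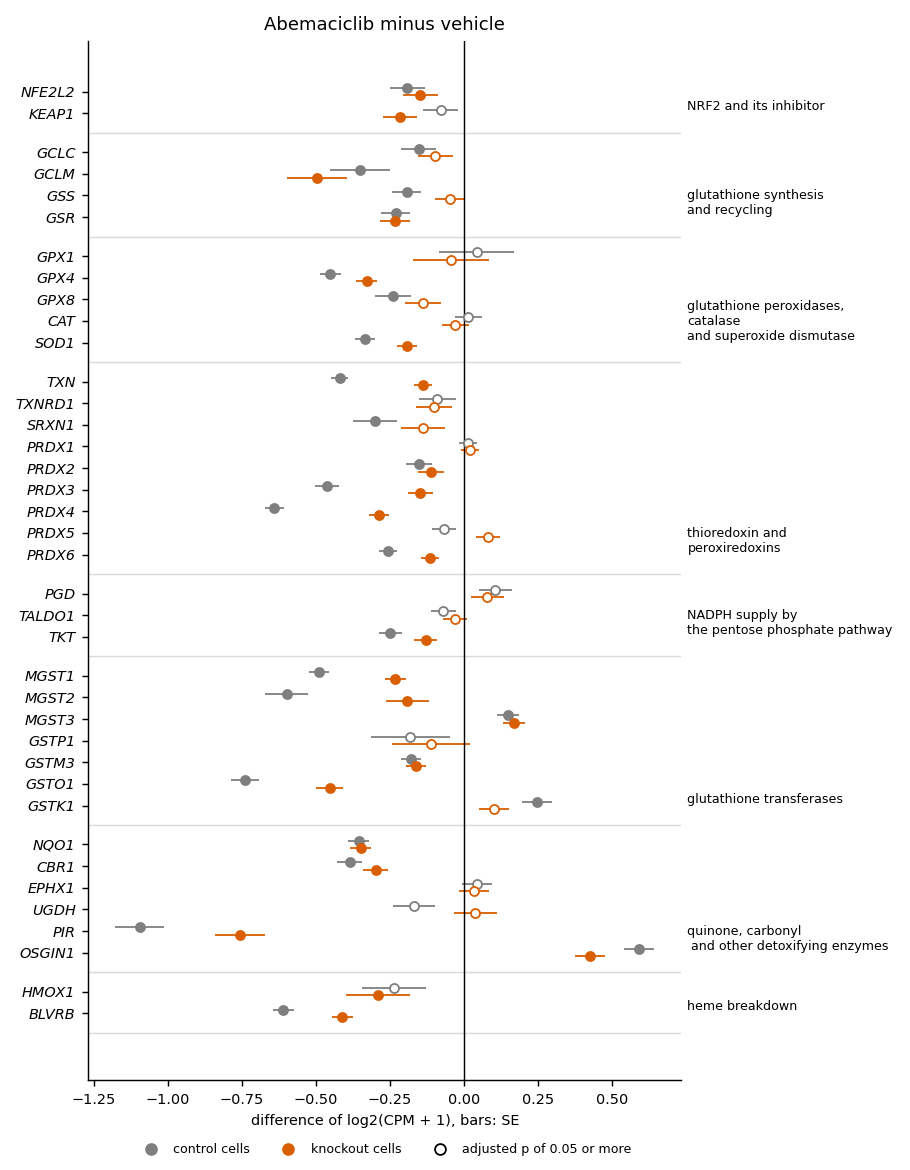
Difference between abemaciclib and vehicle libraries on the log2(CPM + 1) scale for the 38 tested members, grouped by role, in control and in knockout cells (bars, SE of the fit; filled points, limma adjusted p under 0.05). Most points lie left of 0, and OSGIN1 and MGST3 lie to the right in both genotypes.

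The interaction tests whether the drug changed a gene differently in the 2 genotypes. Of the 38 members 8 had a positive interaction, and 0 a negative one (limma; 4.68% and 6.16% of all tested genes, 10.8% together, 7.69% and 8.58% of those of at least 10 mean CPM). At an unadjusted p under 0.05 the counts were 14 and 1 (9.83% and 13.6% of all tested genes). After quantile normalization they were 7 and 1 (4.35% and 5.77%), the negative one being PRDX1 (-0.13, limma adjusted p = 0.0271, against 0.01 as deposited), and after rescaling 10 and 0 (5.41% and 5.44%). The median was 0.06 against -0.03 for all tested genes. In each of the 8 the gene was lower with the drug in both genotypes, and by less in knockout cells. In knockout cells the lower level of TXN, PRDX3, PRDX6 and MGST2 no longer passed after rescaling (limma adjusted p = 0.291, 0.317, 0.624 and 0.289), nor did PRDX3 and MGST2 after quantile normalization (0.246 and 0.438). That of MGST2 was also lost without the filter (0.0821) and without knockout vehicle replicate 1, 2 or 3 or knockout abemaciclib replicate 1, 2 or 4 (limma adjusted p between 0.0502 and 0.123).

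PRDX3, PRDX4, PRDX6 and TXN, which belong to the thioredoxin and peroxiredoxin system, were 4 of the 8. PRDX4 fell by 0.64 in control and 0.29 in knockout cells (interaction 0.35, SE 0.0472, limma adjusted p = 2.4e-06). PRDX3 fell by 0.46 and 0.15 (interaction 0.32, SE 0.0581, limma adjusted p = 2.6e-04). TXN fell by 0.42 and 0.14 (interaction 0.28, limma adjusted p = 1.2e-05), and PRDX6 by 0.26 and 0.11 (interaction 0.14, limma adjusted p = 0.0276). In PRDX3 and PRDX4 the knockout libraries started lower under vehicle and the difference did not pass under the drug, at 119 ± 5.17 and 116 ± 5.16 CPM of PRDX3 and 214 ± 5.73 and 227 ± 9.0 CPM of PRDX4. TXN crossed over, from lower in knockout cells under vehicle to higher under the drug.

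Glutathione transferases gave 3 more. MGST2 had the largest interaction of the set, with a fall of 0.60 in control and 0.19 in knockout cells (interaction 0.41, SE 0.103, limma adjusted p = 0.00741). MGST1 fell by 0.49 and 0.23 (interaction 0.26, limma adjusted p = 3.9e-04). In both the difference by genotype passed under the drug and not under vehicle. GSTO1 fell by 0.74 and 0.45 (interaction 0.29, limma adjusted p = 0.00295) and, like PRDX3, started lower in knockout cells. BLVRB was the last (0.20, limma adjusted p = 0.00662), lost without the trend (0.0528) and after quantile normalization (0.155). PRDX6 missed it when replicate 1 or 3 of control vehicle, replicate 2 of control abemaciclib or replicate 2 or 3 of knockout abemaciclib was left out (between 0.0527 and 0.0676), as well as without the filter (0.0536), without the trend (0.119) and after quantile normalization (0.519). The other 6 stood in each setting that fitted the interaction, which the fit of only the groups compared did not. NFE2L2 (0.04), KEAP1 (-0.14), GCLC (0.06), NQO1 (0.01) and TXNRD1 (-0.01) did not pass. PIR just missed (0.34, limma adjusted p = 0.0591), passing in 8 of the other settings.

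**Figure D4:**
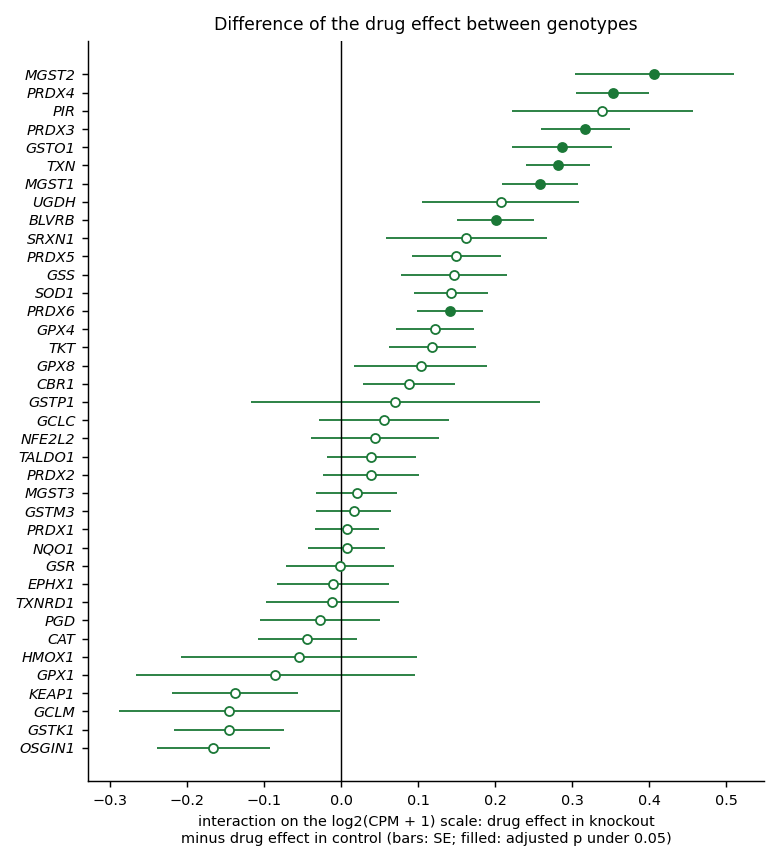
Interaction of genotype and drug for the 38 tested members on the log2(CPM + 1) scale (points, with the SE of the fit; filled, limma adjusted p under 0.05). The 8 filled points, MGST2 to PRDX6, all lie to the right of 0, between 0.14 and 0.41.

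**Figure D5:**
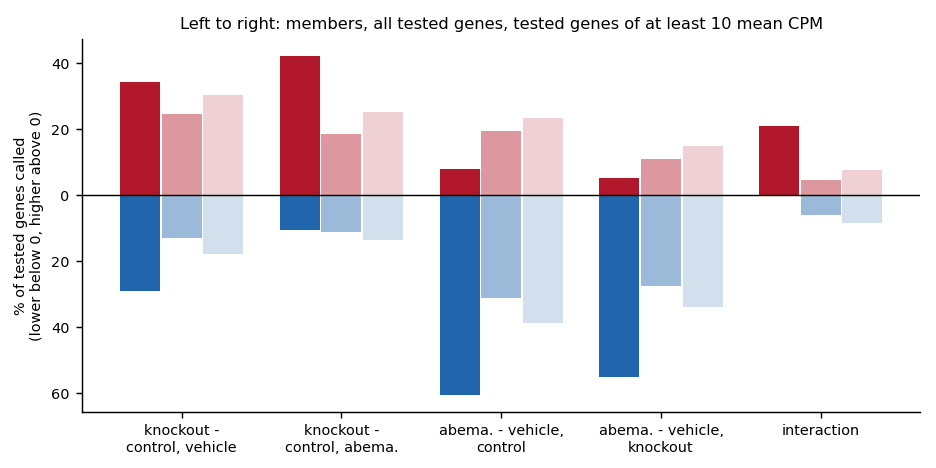
Share of tested genes called higher (above 0) or lower (below 0) in each comparison, for the 38 members (left bars), all 16218 tested genes (middle) and the 9240 tested genes of at least 10 mean CPM (right). The members' share stands farthest from both backgrounds for lower genes under abemaciclib in control cells, at 60.5% against 31.1% and 38.9%.

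A list of 85 other genes of these pathways held 74 tested genes, of which 17 were higher and 15 lower in knockout cells under vehicle, or 22.97% and 20.3% against 24.6% and 13.1% of all tested genes, so that the higher count is near the background. Under abemaciclib 17 were higher and 10 lower (22.97% and 13.5%, against 18.6% and 11.3%). With the drug 18 were higher and 24 lower in control cells (24.3% and 32.4%, against 19.6% and 31.1%) and 13 and 23 in knockout cells (17.6% and 31.1%, against 11% and 27.4%). The interaction was positive in 4 and negative in 8 (5.41% and 10.8%, against 4.68% and 6.16%). Among regulators of NRF2, 5 of 12 were higher and 2 lower under vehicle. MAFK, a small MAF partner of NRF2, rose from 46.97 ± 1.04 to 77.7 ± 1.20 CPM (0.71, limma adjusted p = 1.1e-16) and was 0.26 higher under abemaciclib. The drug raised it too, to 103 ± 0.899 CPM in control and 123 ± 4.22 in knockout cells (interaction -0.46, limma adjusted p = 2.0e-07). MAFF rose by 0.60 at a low level (0.894 ± 0.496 to 1.82 ± 0.268 CPM, limma adjusted p = 0.00184). SQSTM1, the autophagy receptor p62 that binds KEAP1, was at 239 ± 1.51 against 173 ± 1.52 CPM under abemaciclib (0.46, limma adjusted p = 1.1e-13). BACH1, the repressor of the same promoter elements, stood between 17.4 and 18.3 CPM in the means of the 4 groups and passed in neither genotype comparison, from values that were mostly not whole reads.

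Genes of glutathione supply and turnover were lower in 5 of 10 and higher in 2 under vehicle (13.1% and 24.6% of all tested genes). SLC7A11, the cystine transporter that supplies the cysteine of glutathione, stood at 29.2, 27.7, 29.4 and 29.1 CPM in control vehicle libraries and at 8.94, 9.08, 8.78 and 8.96 in knockout vehicle libraries. With the drug it was at 8.50, 7.71, 6.71 and 7.13 in control and 7.77, 6.29, 5.44 and 7.35 in knockout libraries. High levels were thus found in control vehicle libraries alone of the 4 groups, and the interaction was 1.44 (SE 0.124, limma adjusted p = 3.0e-10). SLC3A2, the partner chain of the transporter, fell by 0.20 under vehicle. CHAC1, which degrades glutathione, fell by 1.02 under vehicle and 0.78 under abemaciclib (limma adjusted p = 6.6e-08 and 1.2e-05). CBS, which makes cystathionine on the way to cysteine, fell by 0.63 under vehicle (limma adjusted p = 6.9e-08, from values that were mostly not whole reads). GGT7 was 0.45 higher under abemaciclib and GGT1 0.42 lower (limma adjusted p = 8.4e-06 and 0.00509), the latter at 3.65 ± 0.133 CPM from values that were whole reads in no library.

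Of the other groups, NADPH suppliers were higher in 3 and lower in 1 of 10 under vehicle, thiol and peroxide enzymes in 1 and 1 of 15, detoxifying enzymes and transporters in 4 and 6 of 22, and 2 of 5 genes of heme and iron were higher. Over all tested genes 24.6% were higher and 13.1% lower there, so the NADPH suppliers, at 30% and 10%, were near the background. IDH1, the cytosolic NADPH-producing isocitrate dehydrogenase, rose by 0.30 and 0.40 under the 2 treatments, from values that were mostly not whole reads. TXNIP, the inhibitor of thioredoxin, was at 45.3 ± 0.847 CPM in knockout against 81.0 ± 4.75 in control libraries under abemaciclib (-0.82, limma adjusted p = 9.9e-15) and at 48.1 ± 2.34 against 58.1 ± 4.29 under vehicle (-0.27). TXNIP rose with the drug in control cells (0.47) and did not pass in knockout cells (-0.08), with an interaction of -0.56 (limma adjusted p = 1.3e-06). SOD2, the mitochondrial superoxide dismutase, was chosen after its values were seen and fell with the drug by 0.49 in control and 0.18 in knockout cells (interaction 0.31, limma adjusted p = 0.0381).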

How the data were processed

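RNA of 16 T47D libraries, 4 for each combination of guide and treatment, was sequenced after reverse transcription, tagmentation and amplification, per the labels' protocols. The authors deposited CPM values per gene, and the submitters' processing notes name STAR 2.7.11, featureCounts of Subread 2.1.1 and GRCh38. The annotation release, the strand setting and how reads of several genes were counted are not stated there. Of the values above 0, 70.2% to 71.8% per library were whole multiples of 1 read (tolerance 0.02 reads), so reads were not recovered and no count test was run. After 92 spike-in features were left out, limma 3.58.1 (R 4.3.3) was fitted to log2(CPM + 1) of the 16218 genes that reached 1 CPM in 4 or more libraries, with 4 group means and a trend. Benjamini-Hochberg adjustment ran over all tested genes, with a threshold of 0.05. A log2 difference on this scale understates the change of low genes. The fit was tested on simulated data in which few genes were changed, in both directions. That test does not bear on the dependence of the counts on scaling.

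The 40 members and the list of 85 other genes were chosen with earlier results of these data known. Values in every library are given for NFE2L2, KEAP1 and the members with the largest change among called members of at least 5 mean CPM: up to 4 in each direction in the genotype comparisons and up to 3 in the others. Of the other genes up to 3 in each direction per genotype comparison are named. SLC3A2, BACH1, SOD2 and the other members described by group means were named after their values were seen. GSTT1 of that list is named only. ME1, GPX2, GPX7, AKR1B1, AKR1B10, AKR1C1, ALDH3A1, UGT1A6, ABCC2 and ABCC4 were below the limit. Other settings were a pseudocount of 0.1, no filter, 2 rescalings, no trend, only the groups compared, a replicate block and leaving out each library, 23 in all. The result of 1 gene of the list is not reported here.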

Additional observations from a re-analysis of the deposited data

Results flagged for a closer look

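In 8 of 152 groups of 4 libraries 1 library stood far from the other 3, where chance gives about 1 in 20. NFE2L2 was at 41.6 CPM in control abemaciclib replicate 1, above the others of its group. In the same library MGST2 was low, at 9.81 CPM. GCLM was high at 13.1 CPM and PRDX4 high at 240.3 CPM in knockout abemaciclib replicate 1. GSS was low at 52.2 CPM and TXN high at 653 CPM in knockout vehicle replicate 1. GSTO1 was low at 56.0 CPM in control abemaciclib replicate 2, and NQO1 was low at 253 CPM in knockout vehicle replicate 2.

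The response to abemaciclib differed between knockout and control cells in 8 members by the interaction test (limma, adjusted over all tested genes), in each case with a smaller decrease in knockout cells: MGST2 (0.41), PRDX4 (0.35), PRDX3 (0.32), GSTO1 (0.29), TXN (0.28), MGST1 (0.26), BLVRB (0.20) and PRDX6 (0.14, all log2). Over all tested genes 4.68% had a positive and 6.16% a negative interaction. The call of BLVRB was lost in 2 and that of PRDX6 in 8 of the other settings.

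The features named after the ERCC spike-in controls, which enter no comparison, summed to between 3.06 and 6.28 CPM per library, with a median of 5.31.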

How the results depend on the processing

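Settings were changed 1 at a time, and the cause of a change was not tested. After median-of-ratios rescaling members higher in knockout cells under vehicle numbered 6, with a median of -0.043, against 13 and 0.02 as deposited, and the median under abemaciclib was 0.065. With the drug 5 members were higher in control cells (median -0.14) and 6 higher and 11 lower in knockout cells (median -0.049), and the median interaction was 0.080. After quantile normalization the median under abemaciclib was 0.068, and with the drug 6 were higher in control cells (median -0.13) and 5 in knockout cells (median -0.046). There 1 interaction was negative, PRDX1 at -0.13 (limma adjusted p = 0.0271). The median with the drug in control cells was -0.23 with a pseudocount of 0.1 and -0.19 without the filter. Leaving out 1 library gave medians of -0.00113 to 0.025 for the knockout under vehicle and 0.090 to 0.13 under abemaciclib, -0.24 to -0.19 for the drug in control cells and 0.040 to 0.10 for the interaction.

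In a setting chosen after seeing the data, the 9 tested members with whole reads in 8 or fewer libraries were left out. Of the remaining members 7 were higher and 10 lower in knockout cells under vehicle (median -0.030). Over all tested genes 24.6% were higher and 13.1% lower there. Among the members left out, NFE2L2, GCLM, PRDX1, PGD, TALDO1 and CBR1 had been called higher under vehicle and OSGIN1 lower. Without them more members were thus lower than higher. With the drug 1 remaining member was higher in control (median -0.24) and 1 in knockout cells. The median interaction was 0.12.

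With the replicate number as a block 12 members were higher and 11 lower in knockout cells under vehicle, 16 and 5 under abemaciclib, and the interaction was positive in 9. KEAP1 under vehicle (limma adjusted p = 0.052) and PRDX2 with the drug in knockout cells (0.0518) lost their calls. The numbers do not pair the libraries: deviations of same-numbered libraries correlated at -0.0367 to 0.0603.

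Depth limits AKR1C2, AKR1C3, GPX1 and GSTP1, and sharing of reads between genes was not measured.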
